A study of Mus musculus with 6 samples.

Results

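The genes that take up glutamate and GABA from the extracellular space and return them to neurons as glutamine were examined in cultured cerebellar granule neurons (CGNs) given GSK-126, an inhibitor of the histone methyltransferase EZH2, or the vehicle DMSO. The set held 8 genes, chosen by symbol from the 55341 gene symbols of the count tables: Slc1a1, Slc1a2, Slc1a3, Slc1a6, Slc6a11, Slc6a13, Glul and Slc38a1. RNA-seq libraries enriched for poly-A RNA were made from 3 DMSO and 3 GSK-126 cultures, and each was numbered replicate 1, 2 or 3. According to the study's methods, granule neuron precursors were isolated on Percoll gradients from early postnatal CD1-IGS mice of both sexes. Both groups received AraC to stop the division of non-neuronal cells, then a single addition of GSK-126 or DMSO on day 3 in vitro, and a biological replicate was CGNs from pooled litters. The labels name the cerebellum as the tissue and give day 3 as the time, whereas the methods describe cultures collected at a later day. The study asked whether EZH2 activity is needed for gene regulation in these postmitotic neurons.

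Glutamate and GABA act on a neuron until transporters remove them from the extracellular space. Astroglia take up most of the glutamate, convert it to glutamine with glutamine synthetase, and release the glutamine for neurons to make glutamate and GABA again. In the cerebellum this work is shared between Bergmann glia, other astrocytes, Purkinje cells and granule neurons, each with its own set of transporters. Slc1a3 (EAAT1, GLAST) and Slc1a2 (EAAT2, GLT-1) are the glial glutamate transporters, Slc1a1 (EAAT3, EAAC1) is a neuronal one and Slc1a6 (EAAT4) is best known from Purkinje cells. Slc6a11 (GAT-3) and Slc6a13 (GAT-2) take up GABA, the former in astrocytes and the latter mostly in the meninges. Glul encodes glutamine synthetase, and Slc38a1 (SNAT1) is a glutamine transporter of neurons.

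Of the 8 genes, Slc1a6 was higher in GSK-126 cultures and Slc1a1 and Slc6a13 were lower, at an adjusted p under 0.05 in the edgeR quasi-likelihood fit that paired the libraries by replicate number. Without the replicate 2 pair Slc1a6 was still called, and Slc1a1 and Slc6a13 were not, with adjusted p of 0.224 and 0.0982 in edgeR. The other 5, Slc1a2, Slc1a3, Slc6a11, Glul and Slc38a1, did not pass. Over all 16729 genes tested, 3.35% were called higher and 5.09% lower, and 8.44% were called in either direction. In 5 of the 8 the GSK-126 library was lower in all 3 pairs and in 1 it was higher in all 3, against 22.8% and 19.5% of all tested genes. The median log2 fold change was -0.21 for the 8 genes and -0.0057 for all tested genes. With the libraries scaled to the upper quartile in place of TMM, the calls over all genes split into 4.35% higher and 4.17% lower. Without the pairing edgeR called no gene, and 665 genes had an unadjusted p under 0.05, whereas DESeq2 called 20 genes higher and 1 lower, none of them among the 8.

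The 6 libraries held between 7407189 and 13092763 counts on genes. Both libraries of replicate 2 stood apart from the others on the main principal component, which carried 48% of the variance, and the value of each of the 8 genes is therefore also given without that pair. The 12 granule neuron genes used to check the label summed to between 6060 and 9570 CPM in DMSO, led by Fat2 and Zic1, so RNA of the labelled cell type was present. Astroglial and meningeal genes were present at sums of similar size, as given below. Ezh2, the target of the inhibitor, was at 43.6, 36.0 and 29.7 CPM in DMSO and at 41.7, 32.7 and 26.1 CPM in GSK-126, a reading that bears on its transcript and not on its activity. Because these are bulk RNA samples, fewer cells of a type and less RNA per cell cannot be told apart in any value below.

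The start regions of the 3 called genes are shown first. CpG is marked in them, as the dinucleotide that is dense at many promoters where EZH2 acts. A link between CpG content and the calls was not tested. Each run is the 250 bases before the RefSeq start on GRCm38.p6, read 5′ to 3′ on the strand of the gene, with every CpG in capitals. Slc1a6 lies at chr10:78780246-78780495 on the plus strand, Slc1a1 at chr19:28834885-28835134 on the plus strand and Slc6a13, in the first of its 3 windows, at chr6:121300038-121300287 on the plus strand.
Slc1a6: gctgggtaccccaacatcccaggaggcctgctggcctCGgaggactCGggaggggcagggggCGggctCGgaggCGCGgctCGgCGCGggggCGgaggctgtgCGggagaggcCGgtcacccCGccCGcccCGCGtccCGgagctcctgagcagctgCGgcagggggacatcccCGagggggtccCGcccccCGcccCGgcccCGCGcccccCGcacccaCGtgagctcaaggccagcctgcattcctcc
Slc1a1: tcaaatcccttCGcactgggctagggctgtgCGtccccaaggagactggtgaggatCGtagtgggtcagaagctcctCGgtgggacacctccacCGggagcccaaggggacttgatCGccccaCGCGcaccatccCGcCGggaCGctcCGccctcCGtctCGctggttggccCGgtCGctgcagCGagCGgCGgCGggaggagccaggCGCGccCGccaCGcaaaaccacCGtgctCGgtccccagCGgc
Slc6a13: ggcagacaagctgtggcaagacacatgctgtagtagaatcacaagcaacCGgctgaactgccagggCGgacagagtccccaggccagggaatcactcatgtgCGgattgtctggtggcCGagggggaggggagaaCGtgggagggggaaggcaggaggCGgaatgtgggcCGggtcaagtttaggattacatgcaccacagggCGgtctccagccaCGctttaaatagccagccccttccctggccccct

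The windows of Slc1a6 and Slc1a1 held 26 and 27 CpG, more than 90.4% and 91.4% of the 32851 RefSeq windows of the same length, whose median was 6. The first Slc6a13 window held 9 and its other 2 windows 6 and 2. GENCODE starts Slc6a13 at 6:121300227, so the first window runs past that start and the other 2 lie inside the gene. Among the genes that did not pass, the counts were 25 for Slc6a11, 15 for Glul, 2 for Slc1a3 and 1 for Slc1a2, and no window was matched for Slc38a1. The Slc1a2 window, chr2:102706188-102706437, lies inside the gene, which GENCODE starts at 2:102658659 on the plus strand. Its count therefore does not describe the GENCODE start of Slc1a2. Of the called genes, the one that rose, Slc1a6, held 26, and the 2 that fell held 27 (Slc1a1) and 9 (first window of Slc6a13). GGGCGG, searched on both strands, was found in 6 of the 9 windows of these genes and in 32.7% of all windows. CACGTG, a palindrome, was found in 1 of the 9, that of Slc1a6, and in 6.02% of all windows. These letters are a description of the windows and no occupancy was measured here.

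**Figure D1:**
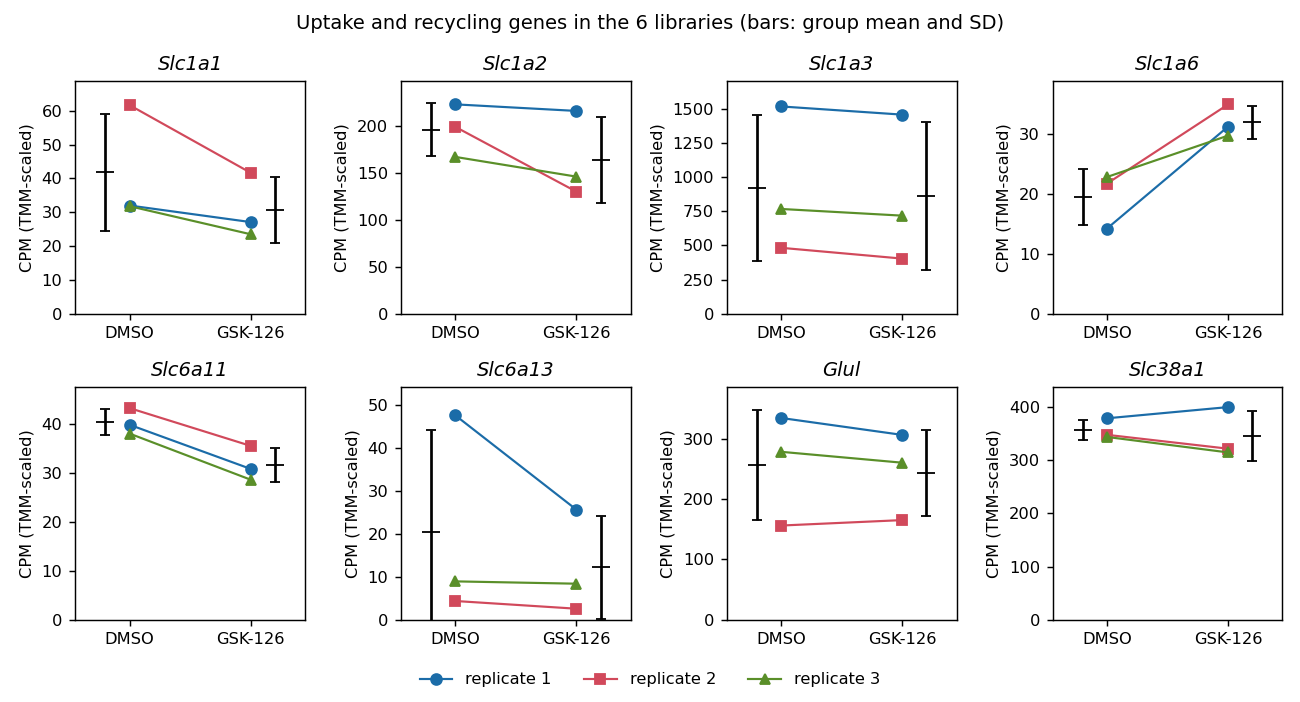
Expression of the 8 genes in CPM scaled by TMM factors (y axes from 0, each gene on its own scale) in DMSO and GSK-126 cultures, with lines joining libraries of the same replicate number and bars giving the group mean and SD (n = 3, the Slc6a13 bar being cut at 0). Lines of Slc1a6 all rise, with GSK-126 libraries between 29.7 and 34.9 CPM above DMSO libraries between 14.2 and 22.8 CPM, and those of Slc1a1 and Slc6a13 all go down.

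Slc1a6 encodes EAAT4, a high-affinity glutamate transporter that also conducts chloride. Its level was 14.2, 21.7 and 22.8 CPM in DMSO replicates 1, 2 and 3, and 31.2, 34.9 and 29.7 CPM in the GSK-126 replicates. Each GSK-126 library was above each DMSO library, so the groups did not overlap, an arrangement with GSK-126 above DMSO that 4.72% of all tested genes showed. The means were 19.5 ± 4.70 and 31.9 ± 2.69 CPM (SD, n = 3). The fit gave a 1.65-fold rise, a log2 fold change of 0.73 with a standard error of 0.15, a 95% interval of 0.42 to 1.03 and an adjusted p of 0.00278 (edgeR). The rise was largest in replicate 1, where the log2 ratio was 1.14, against 0.69 and 0.38 in replicates 2 and 3. Without the replicate 2 pair it was 0.75 with an adjusted p of 0.026 in edgeR. Without the pairing the change was nearly the same, 0.70, with a standard error of 0.21, an unadjusted p of 0.0092 and an adjusted p of 0.953 (edgeR). Slc1a6 passed under all 10 alternatives that kept the pairing, with log2 fold changes between 0.55 and 0.90. GENCODE places the gene at 10:78780496-78814765 on the plus strand, with no exon shared with another gene.

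Since EAAT4 is best known from Purkinje cells, markers of that cell type were read beside it. None of the 7 tested Purkinje genes was called, and the list of 8, led by Itpr1 and Lhx1, summed to between 89.8 and 107 CPM in DMSO and between 97.1 and 105 CPM in GSK-126. The log2 ratios of this sum were 0.07, 0.20 and -0.14 in the 3 pairs, and Itpr1, Lhx1 and Foxp2 made up most of it. The median log2 fold change of the 7 genes was 0.26, and single values went both ways, with 0.51 for Pvalb, 0.45 for Calb1, 0.30 for Car8, 0.26 for Foxp2, -0.01 for Itpr1, -0.29 for Lhx1 and -1.10 for Pcp2. Of the defining markers, Pcp2 was at 2.60 CPM or less in each library, Calb1 at 7.91 to 22.2 CPM, and Ppp1r17 had 1 count in a single GSK-126 library and none elsewhere. The part of Purkinje cells in the Slc1a6 values was not tested.

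Slc1a1 encodes EAAC1, the transporter of neuronal cell bodies and dendrites, which also carries cysteine. Its level was 32.0, 61.7 and 31.8 CPM in DMSO and 27.1, 41.7 and 23.5 CPM in GSK-126. Replicate 2 was the highest library of each group, and the groups overlapped, but each GSK-126 library was below the DMSO library of its own number. The means were 41.8 ± 17.2 and 30.7 ± 9.65 CPM (SD, n = 3). The fit gave a log2 fold change of -0.42 with a standard error of 0.12, a 95% interval of -0.66 to -0.18 and an adjusted p of 0.0275 (edgeR). The log2 ratios of the 3 pairs were -0.24, -0.56 and -0.44. Without replicate 2 the change was -0.33 with an adjusted p of 0.224, without replicate 3 it was -0.41 with 0.0518, and without the pairing -0.44 with 0.953, all in edgeR. The gene lies at 19:28835049-28913960 on the plus strand. Of its 8257 exon bases, 2631 are shared with 4430402I18Rik on the opposite strand, and the strand setting of the counting is not given in the sources used here, so reads of that stretch cannot be assigned with certainty. The partner was at 17.4 to 33.3 CPM in DMSO and 15.0 to 21.3 CPM in GSK-126, with a log2 fold change of -0.37 and an adjusted p of 0.143 (edgeR).

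Slc1a1 shared its highest culture with the granule neuron genes. In DMSO these 12 genes summed to 6060, 9570 and 7260 CPM, highest in replicate 2, as Slc1a1 was. In GSK-126 they summed to 4780, 7600 and 5760 CPM, and the log2 ratios of the pairs were -0.34, -0.33 and -0.33. Of the 12, 9 fell, namely Neurod1, Zic1, Cbln1, Cbln3, Gabra6, Etv1, Rbfox3, Grin2c and Fat2, and none rose. Without replicate 2, 7 of the 12 passed as lower, and Grin2c and Fat2 did not, with adjusted p of 0.336 and 0.0867 in edgeR. The part of this shift in the lower Slc1a1 was not tested.

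Slc1a3 encodes GLAST, the main glutamate transporter of Bergmann glia. Its level was 1520, 483 and 768 CPM in DMSO and 1460, 404 and 719 CPM in GSK-126. The libraries fell into 3 levels by replicate number, whatever the treatment, and within each number the GSK-126 library was slightly below its partner. The log2 ratios were -0.05, -0.26 and -0.09, and the fit gave -0.13 with a standard error of 0.07, a 95% interval of -0.28 to 0.01 and an adjusted p of 0.27 (edgeR). The interval leaves out a rise of more than 0.01 and a drop of more than 0.28 on the log2 scale. Without replicate 2 the value was -0.07 with an adjusted p of 0.679 in edgeR. The means, 922 ± 533 and 861 ± 542 CPM (SD, n = 3), differed by far less than the cultures of one group. The gene lies at 15:8634124-8710764 on the minus strand.

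Slc1a2 encodes GLT-1, the transporter that clears most glutamate in the forebrain. It was at 223, 199 and 167 CPM in DMSO and at 216, 130 and 146 CPM in GSK-126. The groups overlapped, and the largest gap within a pair was in replicate 2, with log2 ratios of -0.05, -0.62 and -0.19. The fit gave -0.28 with a standard error of 0.09, a 95% interval of -0.47 to -0.09 and an adjusted p of 0.0634 (edgeR), which did not pass. This value rested on replicate 2: without that pair the log2 fold change was -0.11 with an adjusted p of 0.476, and without replicate 1 or replicate 3 it was -0.39 or -0.32 and passed, with adjusted p of 0.0128 and 0.0388 in edgeR. The gene lies at 2:102658659-102790784 on the plus strand and shares 189 exon bases with Gm13872.

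**Figure D2:**
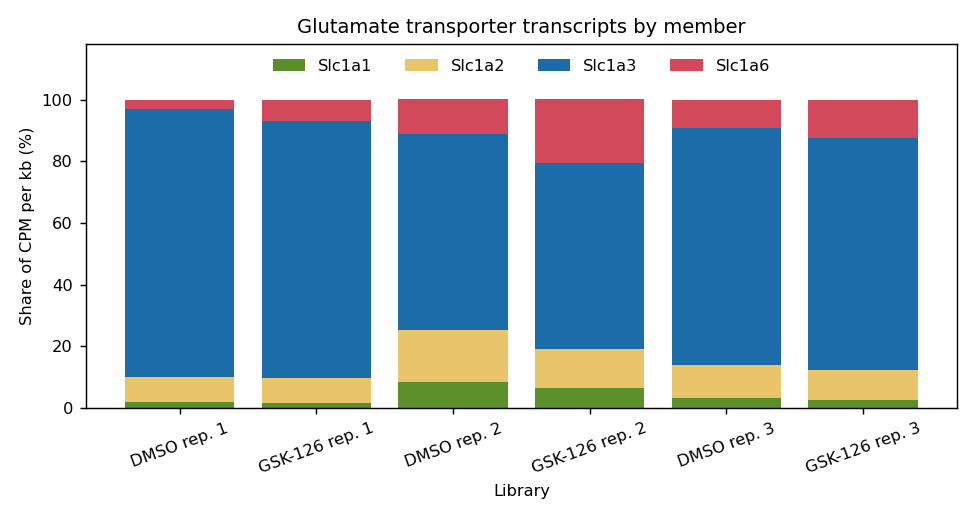
Share of each glutamate transporter in the summed level of Slc1a1, Slc1a2, Slc1a3 and Slc1a6, in percent of CPM per kb of exon (y axis), for the 6 libraries (x axis). Slc1a3 takes 60.3% to 86.6% of each bar, and the Slc1a6 segment is larger in the GSK-126 library of each pair, at 7.06%, 20.7% and 12.3% against 3.21%, 11.3% and 9.05%.

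To compare genes with each other, CPM was divided by the exon length of the gene in kb. In DMSO cultures Slc1a3 had the highest level, 108 CPM per kb (range 56.6 to 178), followed by Glul at 77.1 (47.0 to 100), and their ranges overlapped. Slc38a1 came next at 20.6 CPM per kb (19.9 to 21.9) and then Slc1a2 at 15.0 (12.7 to 17.0), neither overlapping with its neighbours in the order. The lower 4 were Slc1a6 at 9.08 CPM per kb, Slc6a11 at 7.98, Slc6a13 at 6.98 and Slc1a1 at 5.07, and neighbours among these overlapped. In GSK-126 the order was the same but for Slc1a6, which at 14.8 CPM per kb (13.8 to 16.2) stood above Slc1a2 at 12.5 (9.91 to 16.5), with overlapping ranges. As a share of the 4 glutamate transporters per kb, Slc1a6 went from 3.21% to 7.06% in replicate 1, from 11.3% to 20.7% in replicate 2 and from 9.05% to 12.3% in replicate 3. The Slc1a3 share was 86.6%, 63.4% and 76.8% in DMSO and 83.3%, 60.3% and 75.2% in GSK-126. Slc1a3 thus made up most of the transporter RNA in each library, and Slc1a6 gained in each pair.

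Slc6a11 encodes GAT-3, the GABA transporter of astrocytes. Its level was 39.8, 43.2 and 38.0 CPM in DMSO and 30.8, 35.5 and 28.6 CPM in GSK-126. Each GSK-126 library was below each DMSO library, and the spread within groups was small, with means of 40.3 ± 2.62 and 31.6 ± 3.48 CPM (SD, n = 3). Groups arranged this way, with GSK-126 below DMSO, were found for 4.72% of all tested genes. The log2 ratios of the pairs were -0.37, -0.28 and -0.41, and the fit gave -0.35 with a standard error of 0.11, a 95% interval of -0.59 to -0.12 and an adjusted p of 0.0576 (edgeR), just outside the threshold. Without replicate 2 it was -0.39 with an adjusted p of 0.112 in edgeR. Without the pairing its unadjusted p was 0.037 and its adjusted p 0.953 (edgeR). It passed under none of the 10 alternatives that kept the pairing, with log2 fold changes between -0.39 and -0.32.

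Slc6a13 encodes GAT-2, which also carries taurine and betaine. Its level was 47.5, 4.37 and 8.93 CPM in DMSO and 25.6, 2.58 and 8.39 CPM in GSK-126, from 24 to 413 counts per library. Replicate 1 was several times above the other cultures in both groups, and the groups overlapped. Within pairs the GSK-126 library was lower each time, with log2 ratios of -0.89, -0.76 and -0.09. The means were 20.3 ± 23.7 and 12.2 ± 12 CPM (SD, n = 3). The fit gave a log2 fold change of -0.61 with a standard error of 0.19, a 95% interval of -1.0 to -0.22 and an adjusted p of 0.0467 (edgeR). The call rested on replicates 1 and 2: without replicate 1 the change was -0.35 with an adjusted p of 0.654, without replicate 2 it was -0.60 with 0.0982, and without replicate 3 it was -0.85 with 0.00294, all in edgeR. Without the pairing it was -0.70 with a standard error of 0.97 and an adjusted p of 0.961 (edgeR).

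Because GAT-2 is known from the meninges, meningeal genes were read beside it. The 9 genes of that list, led by Col1a1 and Col3a1, summed to 7330, 7720 and 9630 CPM in DMSO and to between 8090 and 10400 CPM in GSK-126, and none was called. The log2 ratios of the pairs were 0.29, 0.07 and 0.11. Col1a1, Col1a2 and Col3a1 made up most of this sum, which was lowest in replicate 1 of DMSO. The less abundant genes of the list, read after their values were seen, did not share 1 order in DMSO. Dcn was at 274, 140 and 221 CPM, Lum at 129, 69.8 and 99.4 CPM and Ogn at 92.7, 77.8 and 88.9 CPM. These were highest in replicate 1 and lowest in replicate 2, as Slc6a13 was. Igf2 was at 16.1, 8.28 and 20.7 CPM, Aldh1a2 at 70.4, 36.3 and 75.8 CPM and Foxc1 at 83.2, 59.9 and 86.6 CPM. The latter were also lowest in replicate 2 but highest in replicate 3, unlike Slc6a13. Without replicate 2, Ogn was higher in GSK-126, at 0.47 with an adjusted p of 0.00317 in edgeR. The part of meningeal cells in the Slc6a13 values was not tested. The 2 GABA transporters together went from 87.3, 47.5 and 46.9 CPM to 56.4, 38.0 and 37.0 CPM, lower in each pair. Slc6a11 lies at 6:114131241-114249952 and Slc6a13 at 6:121300227-121337733, both on the plus strand.

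**Figure D3:**
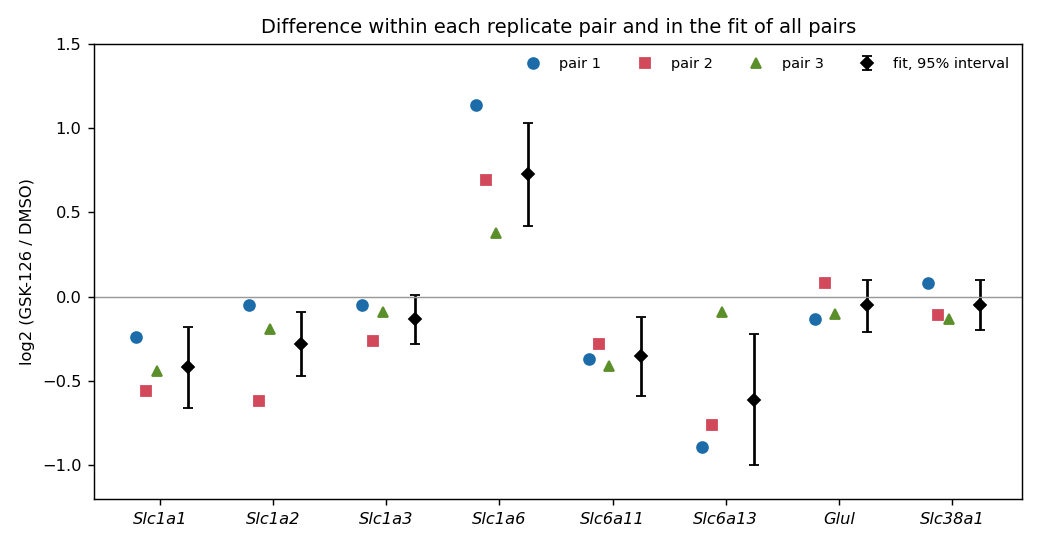
Log2 ratio of GSK-126 to DMSO (y axis) for each of the 8 genes (x axis), with 1 marker for each replicate pair and a diamond for the value fitted over all pairs with its 95% interval. The Slc1a6 interval, 0.42 to 1.03, lies above 0, those of Slc1a1, Slc1a2, Slc6a11 and Slc6a13 lie below 0, and those of Slc1a3, Glul and Slc38a1 include 0.

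The glutamine step differed least between groups. Glul, the enzyme that joins ammonia to glutamate, was at 334, 156 and 278 CPM in DMSO and at 306, 165 and 260 CPM in GSK-126. Pairs 1 and 3 were slightly lower and pair 2 slightly higher, and the fit gave -0.05 with a standard error of 0.07, a 95% interval of -0.21 to 0.10 and an adjusted p of 0.74 (edgeR). Slc38a1, which moves glutamine with sodium, was at 378, 347 and 343 CPM in DMSO and at 399, 321 and 314 CPM in GSK-126. Its fit gave -0.05 with a standard error of 0.07, a 95% interval of -0.20 to 0.10 and an adjusted p of 0.732 (edgeR). For both genes the interval leaves out a change of more than 0.21 on the log2 scale in either direction, at this spread between pairs. Without replicate 2 the values were -0.11 for Glul and -0.02 for Slc38a1, with adjusted p of 0.452 and 0.937 in edgeR. Glul lies at 1:153899944-153909723 on the plus strand, with 116 exon bases shared with Teddm2 on the opposite strand, and Slc38a1 at 15:96571418-96642913 on the minus strand.

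Variation between cultures of one group was large for some of these genes and small for others. The highest DMSO library was 10.9 times the lowest for Slc6a13, 3.14 times for Slc1a3, 2.14 times for Glul and 1.94 times for Slc1a1. It was 1.61 times for Slc1a6, 1.34 times for Slc1a2, 1.14 times for Slc6a11 and 1.10 times for Slc38a1, and the median over all tested genes was 1.39. The range of Slc6a13 was above that of 99.7% of tested genes and that of Slc1a3 above 96.0%, while that of Slc38a1 was above 7.90%. The gain from pairing the libraries also differed between genes. The standard error without the pairing was 7.67 times that with it for Slc1a3, 5.20 times for Slc6a13 and 4.28 times for Glul, and 1.41 and 1.24 times for Slc1a6 and Slc6a11.

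The order of cultures was not the same for all genes. Slc1a3 and Glul were highest in replicate 1 and lowest in replicate 2 in both groups, as was the sum of the 16 astroglial genes. That sum was 8640, 3000 and 4850 CPM in DMSO and 8890, 2940 and 4850 CPM in GSK-126. Between treatments the astroglial sum moved by a log2 ratio of 0.04, -0.03 and 0.00 in the 3 pairs. Its most abundant genes, Gfap and Aqp4, had log2 fold changes of 0.15 and -0.15 with adjusted p of 0.212 and 0.235 in edgeR. Of the 16, S100b and Gdf10 rose, by 0.56 and 0.72, and Slc4a4 fell by 0.32, all on the log2 scale. Over all tested genes 3.35% were called higher and 5.09% lower. Without replicate 2, S100b and Gdf10 passed and Slc4a4 did not, at -0.25 with an adjusted p of 0.051 in edgeR. The astroglial sum was thus about level between treatments, and it varied about as Slc1a3 did between cultures. Single genes of the list went both ways between treatments. Not all of them followed the order of the sum, as Timp4 was at 112, 92.5 and 77.9 CPM in DMSO replicates 1, 2 and 3. Slc1a1 was highest in replicate 2, where Slc1a3 was lowest, and Slc6a13 shared the peak of Slc1a3 in replicate 1.

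**Figure D4:**
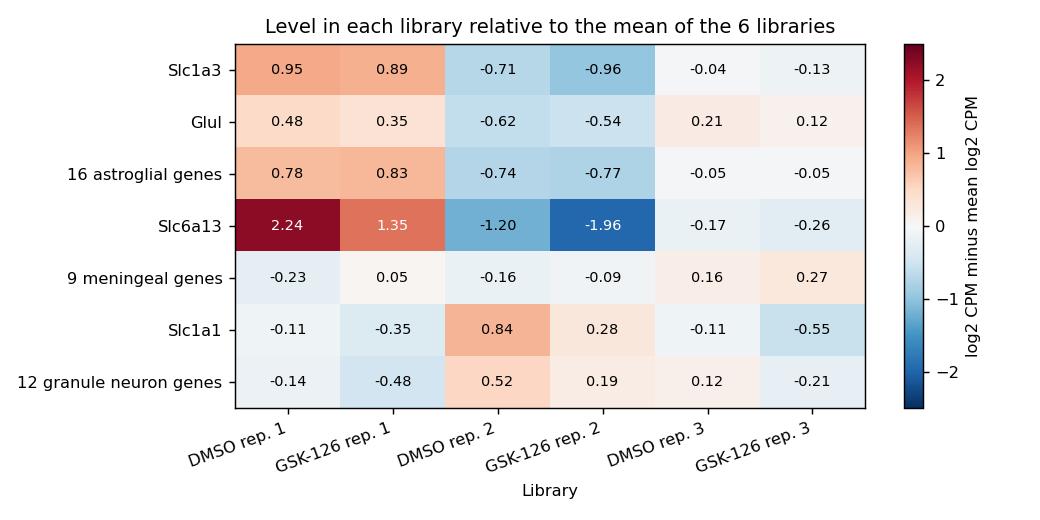
Colour scale of log2 CPM minus its mean over the 6 libraries (columns, ordered by replicate number) for Slc1a3, Glul, Slc6a13, Slc1a1 and the summed astroglial, meningeal and granule neuron genes (rows). Slc1a3 and the 16 astroglial genes are 0.95 and 0.78 above their means in DMSO replicate 1 and 0.71 and 0.74 below in DMSO replicate 2, whereas Slc1a1 is 0.84 above in DMSO replicate 2.

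Genes with the most similar course over the 6 libraries were sought among 11421 genes of at least 10 CPM, by the root mean square difference of centred log2 CPM. The nearest to Slc1a3 was Aqp4, the water channel of astrocyte end feet, at 0.058, followed by 1700071M16Rik at 0.09. Those nearest to Glul were Rab31 at 0.042 and Pea15a at 0.049. Slc1a6 had Ccn1, a secreted matrix protein, at 0.11 and Gm15270 at 0.12. Slc1a1 lay nearest to Cntn6, a neuronal adhesion protein, at 0.066 and Fam131b at 0.073. For Slc1a2 the nearest were Usp6nl at 0.064 and Ift74 at 0.089, for Slc6a11 Lsamp at 0.039 and Iqcg at 0.04, and for Slc38a1 St7l at 0.043 and Mpdu1 at 0.044. Slc6a13 had few close companions, Myh8 at 0.18 and then Col26a1 at 0.48. Among the 8 genes themselves the closest pair was Slc1a2 and Slc38a1, at 0.19, while Slc1a3 and Glul were 0.37 apart and the GABA transporters Slc6a11 and Slc6a13 were 1.4 apart.

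The rest of the cycle was read from a list of 34 genes that held other transporters, enzymes, vesicle loaders and partner proteins. Of these, 31 could be tested, 2 rose, 8 fell and 21 did not pass, with a median log2 fold change of -0.16. The shares over all tested genes were those given above, 3.35% higher and 5.09% lower. Without the replicate 2 pair none passed as higher and 6 as lower, where 2.00% and 2.95% of all genes tested did. Without the pairing no gene of the list passed in edgeR, where the adjusted p was 0.953 or more for each, or in DESeq2, where Slc32a1 had 0.468 and Atp1b2 0.737.

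Among the other uptake genes, Slc1a5 (ASCT2), a carrier of neutral amino acids that include glutamine, was at 46.5, 23.6 and 26.1 CPM in DMSO and at 61.4, 36.8 and 32.8 CPM in GSK-126. It rose by 0.46 with an adjusted p of 0.0147 in edgeR, and without replicate 2 the value was 0.37 with an adjusted p of 0.104. Its relative Slc1a4 (ASCT1) was at -0.01, the taurine transporter Slc6a6 at 0.08 and the cystine and glutamate exchanger Slc7a11 at 0.11 on the log2 scale, none passing. Slc1a7 was listed at 0 in each library, and Slc6a12, which lies 5.34 kb from Slc6a13, was at 1.04 CPM or less and was not tested.

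Of the glutamine carriers, Slc38a7 (SNAT7), a lysosomal glutamine transporter, was at 44.8, 38.6 and 41.4 CPM in DMSO and at 57.8, 53.9 and 49.2 CPM in GSK-126. The groups did not overlap, and it rose by 0.37 with a standard error of 0.10 and an adjusted p of 0.0289 (edgeR). Without replicate 2 its change was 0.31 with an adjusted p of 0.15, and without replicate 1 it was 0.38 with 0.111, in edgeR. Slc38a3 (SNAT3), the carrier through which astroglia release glutamine, had a log2 fold change of -0.30 with an adjusted p of 0.0796, and passed without replicate 2, at -0.40 with 0.0332, in edgeR. Slc38a2, the neighbour of Slc38a1 at 44.5 kb, was at -0.06 and Slc38a6 at 0.05, with adjusted p of 0.697 and 0.863 in edgeR. Slc38a5 had 1 count in a single library.

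Vesicle loading and GABA synthesis held the larger decreases. Slc17a7, the vesicular glutamate transporter VGLUT1, was at 57.4, 275 and 65.1 CPM in DMSO and at 15.1, 68.0 and 17.7 CPM in GSK-126, and fell by 1.95 on the log2 scale with an adjusted p of 1.16e-10 (edgeR). Slc32a1, which loads GABA into vesicles, went from 54.7, 58.7 and 64.5 CPM to 47.0, 32.3 and 29.7 CPM and fell by 0.72, with an adjusted p of 0.00147 in edgeR. Without replicate 2 the log2 fold changes were -1.90 for Slc17a7 and -0.64 for Slc32a1, with adjusted p of 6.7e-06 and 0.039 in edgeR. The other vesicular glutamate transporters did not pass. Slc17a8 (VGLUT3) was at 3.57, 1.95 and 2.17 CPM in DMSO and at 4.54, 3.87 and 6.13 CPM in GSK-126, groups that did not overlap, with a log2 fold change of 0.92 and an adjusted p of 0.0958 (edgeR). Slc17a6 (VGLUT2) was at 0.14 with an adjusted p of 0.377 in edgeR. The GABA-synthesising enzymes Gad1 and Gad2 fell by 0.32 and 0.52, with adjusted p of 0.0162 and 0.0264 in edgeR, and in all 3 of these GABA genes the groups did not overlap. Without replicate 2 the change of Gad2 was -0.45 with an adjusted p of 0.127. These 3 genes are also the called members of a list of 8 interneuron markers, whose sum was 227 to 265 CPM in DMSO and 174 to 220 CPM in GSK-126, a sum to which these 3 contribute most. The other tested genes of that list did not pass, with log2 fold changes of -0.10 for Pax2, -0.11 for Tfap2b, 0.18 for Lhx5 and 0.34 for Npy. The part of interneurons in the GABA transporter values was not tested. The mitochondrial glutamate carrier Slc25a22 fell by 0.33 with an adjusted p of 0.0186 in edgeR, and without replicate 2 it was at -0.30 with 0.0997.

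**Figure D5:**
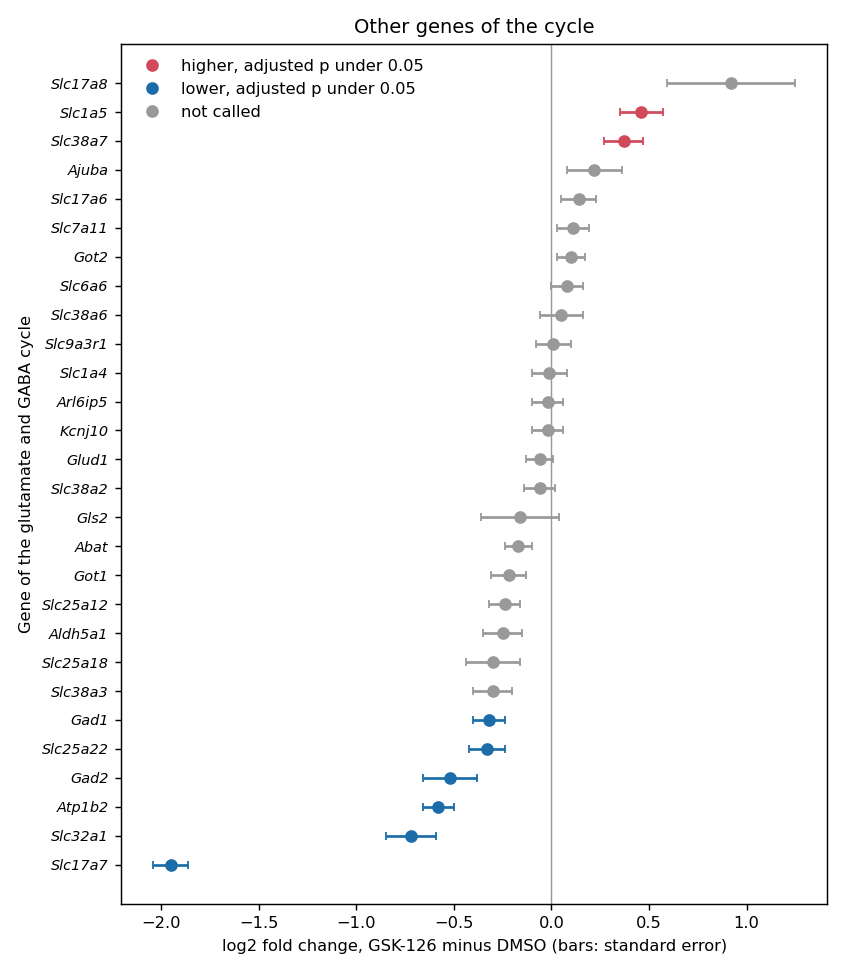
Log2 fold change of GSK-126 minus DMSO (x axis) with its standard error for 28 of the tested genes of the cycle other than the 8 (y axis), coloured by call. Slc17a7 stands at -1.95, and 2 genes are marked higher and 6 lower.

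Of the partner genes, Atp1b2 is a subunit of the sodium pump, which maintains the sodium gradient that drives uptake. It was at 660, 945 and 635 CPM in DMSO and at 531, 542 and 413 CPM in GSK-126, groups that did not overlap, and fell by 0.58 with an adjusted p of 9.29e-05 (edgeR). Without replicate 2 it was at -0.46 with 0.0039.

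Several of these calls did not last when 1 pair was left out. Gad2 passed in none of the 3 such fits, with an adjusted p of 0.0795 without replicate 1 and of 0.0605 without replicate 3 (edgeR). Gad1 passed without replicate 2 but had adjusted p of 0.0726 and 0.166 without replicates 1 and 3 in edgeR. Slc25a22 passed without replicate 1 and had 0.116 without replicate 3 in edgeR. Slc17a7, Slc32a1 and Atp1b2 passed in all 3.

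Of the remaining cell types, microglial genes were higher in the GSK-126 library of each pair. The 10 genes summed to between 399 and 819 CPM in DMSO and between 556 and 1000 CPM in GSK-126, with log2 ratios of 0.29, 0.48 and 0.27. Of these, 4 rose, among them C1qa, C1qb and C1qc, and Trem2 was listed at 0 throughout. Without replicate 2, C1qa passed, and C1qb and C1qc had adjusted p of 0.122 and 0.139 in edgeR. Among 10 oligodendrocyte lineage genes, Mbp, the most abundant, rose by 0.28 with an adjusted p of 0.0407 in edgeR, and without replicate 2 it was at 0.15 with 0.28. Of 9 vascular genes, led by Vtn and Cdh5, 7 were tested and none was called. Of 8 granule neuron precursor genes, led by Ccnd1 and Top2a, 6 were tested and none was called. Atoh1 and Gli1, at 1.12 CPM or less in each library, were not tested. Without replicate 2, Ccnd1 passed, at 0.32 with an adjusted p of 0.0354 in edgeR. The part of these cell types in the transporter values was not tested.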

How the data were processed

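Poly-A RNA-seq was made from 6 CGN cultures, 3 given DMSO and 3 given GSK-126. The authors used Trimmomatic 0.38 for trimming, STAR 2.7.2b for alignment to GRCm38.p4 and HTSeq for counting on exons. The deposited values are raw counts per gene. The strand setting and Gencode release are not given in the sources used here. Lines that name no gene, 58.7% to 60.7% of listed reads, were left out.

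Counts were scaled by TMM factors in edgeR 4.0.16 under R 4.3.3, filtered with filterByExpr and compared between treatments by its quasi-likelihood test, with the replicate number as a block and Benjamini-Hochberg adjustment over all genes tested. CPM are scaled by the TMM factors. The block was taken as the main design because the libraries of these genes were to be paired by number, with it already known that the fit without the block makes no call. The pairing comes from the labels' replicate numbers and was checked in the counts. Correlations of deviations from the group means were 0.59, 0.66 and 0.51 for equal numbers and 0.012 or less for different ones. Deviations within a group cancel out, so positive values for equal numbers push those for different numbers down. The latter are therefore no separate check. Whether same-numbered cultures came from the same litters is not stated.

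The members and gene lists were chosen with earlier results of these data known. Named were all 8 members, pathway genes that passed, the SLC1, SLC6 and SLC38 genes of the list, the 2 most abundant and the called genes of each marker list, and the 2 genes nearest each member. Gene positions, exon lengths and overlaps came from GENCODE M21, whose symbols match all 55341 of the tables, and start regions from RefSeq. Alternatives were other scalings, other filters, DESeq2 1.42.0, voom in limma 3.58.1, no block and leaving out each pair. Scripts were tested on simulated data. Counting error is included in the fits, and no library was a copy of another. Some genes of the lists are counted but not reported here by name. Further genes of the Purkinje, interneuron, meningeal and vesicle loading lists were named after their values were seen.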

Additional observations from a re-analysis of the deposited data

How the results depend on the processing

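Calls depended most on the pairing. With no replicate block the counts of members called were 0 higher and 0 lower, and those of other genes of the cycle 0 and 0, in edgeR and in DESeq2 alike, against 1, 2, 2 and 8 with it. Dropping the block changed no direction among the members. Under upper-quartile normalization and under total counts, 1 member was lower, since Slc6a13 had adjusted p of 0.0619 and 0.0572. Both scalings moved the median of all genes by 0.034 on the log2 scale. DESeq2 with the replicate block called 0 members lower (Slc1a1 at 0.0909 and Slc6a13 at 0.171) and 1 gene of the cycle higher. Leaving out 1 pair at a time gave 1 member higher each time, 0 to 2 members lower, 0 to 2 genes of the cycle higher and 5 to 6 lower, the lowest member count being without replicate 2. Among the members the only change of sign was Glul without replicate 1, at 0.00 with an adjusted p of 0.996, where leaving out 1 pair gave Glul values from -0.11 to 0.00. Slc1a6 passed under each of the 10 alternatives with the block, Slc1a1 under 7 and Slc6a13 under 5. Slc1a2 passed under 3, and the other members under none. Why a call was lost was not tested, except that leaving out a pair leaves fewer libraries. With 3 pairs, the intervals printed beside each gene set what could be seen, and Slc6a13, at 24 counts in its lowest library, is the least precise.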

Other observations

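Genes next to the members were read as well, chosen by position after the members were known. Atp2b2 and Cd44 are described because they passed, as 8.44% of all tested genes did in either direction. Among the tested neighbours, Glis3, Plpp6, Pamr1, Ranbp3l, Usp18, Scaf11 and Slc38a2 did not pass, with adjusted p of 0.246 or more in edgeR. Others had too few counts to be tested. Atp2b2, a plasma membrane calcium pump 88.6 kb from Slc6a11, was at 260, 861 and 439 CPM in DMSO and at 170, 432 and 255 CPM in GSK-126, and fell by 0.80 on the log2 scale with an adjusted p of 1.27e-06 in edgeR. Cd44, a hyaluronan receptor 20.4 kb from Slc1a2, was at 227, 134 and 195 CPM in DMSO and at 279, 150 and 260 CPM in GSK-126, and rose by 0.29 with an adjusted p of 0.0171 in edgeR. Without the pairing both had an adjusted p of 0.953 in edgeR.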
